A study of Homo sapiens with 8 samples.

Results

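Mitosis and spindle genes were followed across every library as a listed group of 43 genes, out of 57905 genes in the deposited expression table. The list takes G2/M, kinetochore, spindle and condensin genes by symbol, and each of the 43 symbols matched a single Ensembl identifier of the table. Total RNA of human prostate cancer cells was sequenced in 8 libraries. EnzaR cells, labelled as resistant to the antiandrogen enzalutamide, were grown with 10 uM of the drug and received 40 nM of control siRNA (siNC, n = 2) or of siRNA against YAP1 (siYAP1, n = 2) for 48 h. YAP1 is a transcriptional coactivator that is held back by the Hippo pathway. LNCaP cells, an androgen-sensitive prostate cancer line labelled as sensitive to enzalutamide, were grown without the drug and had 1 library per group at 48 h. These were a vehicle control, and cells exposed to extracellular vesicles (EVs) of EnzaR cells after these had received control siRNA (EV-siNC), after depletion of YAP1 (EV-siYAP1) or after depletion of the nuclear receptor COUP-TFII (EV-siCII). The labels do not say whether libraries of a group came from separate cultures, and the p-values therefore reflect the spread between these samples alone, which may be technical.

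Cells entering mitosis build up cyclin A and cyclin B, which activate the kinase CDK1. The Aurora and Polo kinases then help to assemble the spindle, and kinetochores link chromosomes to its microtubules. Until every kinetochore is attached, the spindle checkpoint keeps CDC20 from activating the anaphase-promoting complex, the ubiquitin ligase whose action releases sister chromatids and ends mitosis. Most of these genes are transcribed late in the cell cycle: the DREAM complex represses them in resting cells, and the MYB-MuvB complex, which contains LIN9 and B-Myb (MYBL2), activates them together with FOXM1 in dividing cells. Both complexes reach such promoters through the cell cycle genes homology region (CHR), and many of these promoters also carry CCAAT boxes. In tumours the summed level of such genes is commonly used as a measure of proliferation. In RNA from whole cultures, fewer cells in mitosis and less RNA per cell cannot be told apart.

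The promoters of the group carried this sequence signature. RefSeq windows on GRCh38.p14, from 250 bases before to 50 bases after the annotated start, matched 35 of the 43 genes. AURKA, BIRC5, BUB3, FOXM1, PBK, TPX2, TTK and UBE2C had no entry. The CHR letters TTTGAA, read on either strand, were present in 25 of 35 windows (71.4%), against 15.4% of all 27305 windows of that length. Within 50 bases of the start they were present in 19 of 35 (54.3%), against 4.7% of all windows. The letters CCAAT were present in 26 of 35 windows (74.3%), against 35.7% of all. GGAATG, the core letters bound by the TEAD factors through which YAP1 acts, was present in 5 of 35 (14.3%), against 14% of all. Matches were counted for each motif separately, also where motifs overlapped, and a match describes letters, not binding.

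The upstream parts of 3 windows are shown, with CHR and CCAAT letters in capitals on either strand. ANLN (chr7:36389612-36389861, GRCh38.p14, plus strand) and BUB1B (chr15:40160819-40161068, plus strand) are the genes with CHR letters that fell in the YAP1 siRNA comparison described further on. CCNB2 (chr15:59104896-59105145, plus strand) was added after its values were seen, because its window combines several CCAAT boxes with a CHR.
ANLN: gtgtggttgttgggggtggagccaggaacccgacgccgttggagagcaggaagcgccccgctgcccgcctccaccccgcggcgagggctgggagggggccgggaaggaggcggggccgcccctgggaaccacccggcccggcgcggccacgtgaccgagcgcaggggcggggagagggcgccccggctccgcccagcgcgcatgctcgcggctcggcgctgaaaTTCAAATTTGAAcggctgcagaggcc
BUB1B: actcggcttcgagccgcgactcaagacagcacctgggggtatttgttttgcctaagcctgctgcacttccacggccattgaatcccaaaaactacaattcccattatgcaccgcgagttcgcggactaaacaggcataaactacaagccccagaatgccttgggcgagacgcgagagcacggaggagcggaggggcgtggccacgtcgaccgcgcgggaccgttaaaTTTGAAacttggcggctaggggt
CCNB2: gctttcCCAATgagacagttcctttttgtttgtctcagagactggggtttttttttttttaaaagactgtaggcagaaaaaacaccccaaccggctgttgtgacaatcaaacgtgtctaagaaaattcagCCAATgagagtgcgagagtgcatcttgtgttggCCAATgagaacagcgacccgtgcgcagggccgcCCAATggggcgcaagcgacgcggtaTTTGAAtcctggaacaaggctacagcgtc
Counted from the annotated start at 0, the CHR letters began at -26 and -20 in ANLN, where the 2 matches adjoin on opposite strands. They began at -23 in BUB1B and at -29 in CCNB2. CCNB2 had 4 CCAAT boxes, at -244, -120, -87 and -54, while ANLN and BUB1B had none.

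Total counts were 16682669 to 18248939 per library. In EnzaR libraries the 43 genes together held 44578 to 53363 counts, or 0.267 to 0.292% of the total. LNCaP libraries held 3634 to 4651, or 0.021 to 0.027%. YAP1 itself stood at 59.6 and 49.1 CPM (counts relative to library size, scaled by the trimmed mean of M values, TMM) in siNC and at 6 and 7.33 CPM in siYAP1, a log2 fold change of -3.02 (SE 0.154, edgeR adjusted p = 2.07e-10). In the LNCaP libraries it ranged from 58.8 to 67.4 CPM. No pair of libraries agreed within sampling noise, the closest pair being EV-siNC and EV-siCII with a chi-square of 4.71 per degree of freedom. The same measure was 6.36 between the siNC replicates and 7.48 between the siYAP1 replicates. Luminal prostate markers (10 of 10 found) summed to 3270 to 3550 CPM in EnzaR and 3560 to 3880 CPM in LNCaP libraries. Behind these sums, 5 of the 10 were higher and 4 lower in EnzaR siNC than in LNCaP control, with KLK2 at 200 and 214 against 19.4 CPM and KRT8 at 669 and 704 against 1330 CPM. Of 13 markers of other cell types, KRT5, TP63, PTPRC and CD3E were at 0 in all 8 libraries, and the list summed to 30 to 35.6 CPM in EnzaR and 109 to 122 CPM in LNCaP, most of it COL1A1.

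All 43 genes were higher in EnzaR siNC cells than in the LNCaP control library, with a median log2 fold change of 4.06, or 16.7-fold. The median over all 17537 genes tested was -0.0022, and 58.4% of them were called, 29.8% higher, by the same rule (edgeR quasi-likelihood test over 8 libraries in 6 groups, adjusted p under 0.05). At least 4-fold differences were seen for 42 of the 43, a size reached by 5.91% of all genes. At least 16-fold differences were seen for 22, a count with no share over all genes beside it, so it describes the members alone. For each of the 43 genes, every EnzaR library lay above every LNCaP library, which held for 30.6% of all genes. The summed level of the group was 2810, 2950, 2940 and 2930 CPM in siNC 1, siNC 2, siYAP1 1 and siYAP1 2. In LNCaP it was 237 CPM in control, 214 in EV-siNC, 197 in EV-siYAP1 and 254 in EV-siCII. The lines thus stood apart by an order of magnitude, while on this TMM scale siYAP1 sums lay within the range of the siNC replicates. As a share of total counts, the group held 0.285 and 0.292% in siNC. It held 0.267 and 0.278% in siYAP1, where both libraries were below both siNC libraries.

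**Figure D1:**
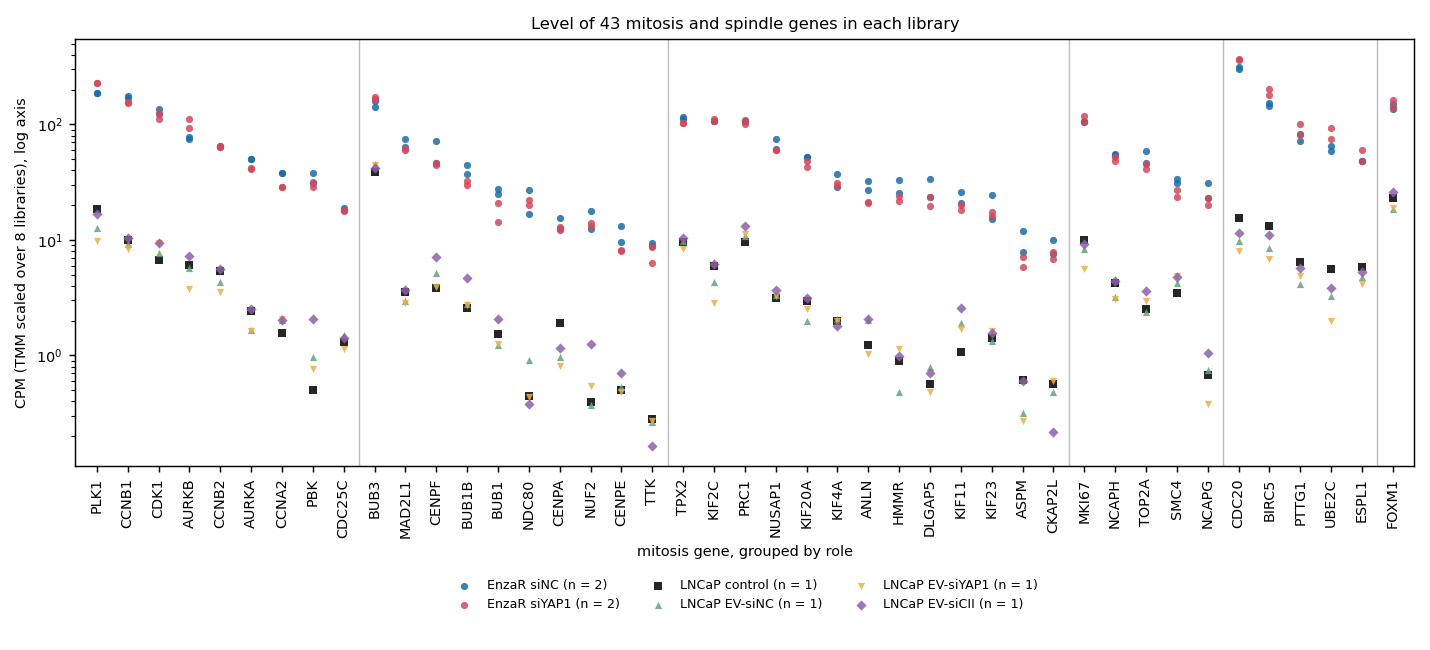
Level of each of the 43 genes (x axis, grouped by role) in each library, in TMM-scaled CPM on a log axis (y axis); every point is 1 library. All EnzaR points (circles) lie above all LNCaP points of the same gene, and BUB3 shows the smallest gap.

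The 8 largest differences came from several roles (kinases, a cyclin, kinetochore, spindle and condensin genes), and each of these genes was at or below about 2 CPM in the LNCaP libraries. PBK, a mitotic serine/threonine kinase, stood at 31.1 and 37.8 CPM in siNC and 0.507 CPM in LNCaP control (log2 fold change 6.07, SE 0.334). DLGAP5, a microtubule-associated protein of the spindle, stood at 23.4 and 33.4 against 0.563 CPM (5.64, SE 0.374). NDC80, the microtubule-binding subunit of the outer kinetochore, stood at 16.9 and 27.1 against 0.45 CPM (5.59, SE 0.417). In each case the lowest EnzaR library exceeded the highest LNCaP library more than 10-fold, by 13.8-fold for PBK, 24.4-fold for DLGAP5 and 18.6-fold for NDC80. NCAPG, a condensin subunit (5.31), NUF2, the partner of NDC80 (5.24), HMMR, a spindle assembly factor (5.02), TTK, the kinase that starts checkpoint signalling (4.99), and CCNA2, cyclin A (4.59), completed the 8. The LNCaP control counts behind some of these were few: 5 for TTK, 7 for NUF2, 8 for NDC80, 9 for PBK and 10 for DLGAP5.

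Widely used proliferation genes differed less, from higher LNCaP levels. CDC20, the activator of the anaphase-promoting complex, stood at 304 and 312 CPM in siNC and at 7.96 to 15.6 CPM over the LNCaP libraries (log2 fold change against control 4.30, SE 0.153). PLK1, the Polo kinase, stood at 186 and 189 against 9.8 to 18.6 CPM (3.33, SE 0.148). CDK1 (4.27), CCNB1 (4.12), the Ki-67 gene MKI67 (3.41) and the transcription factor gene FOXM1 (2.62) lay between 6.16-fold and 19.3-fold. The smallest difference was that of BUB3, a checkpoint protein, at 141 and 160 against 38.6 to 45.3 CPM (1.96, SE 0.14, 3.9-fold). By role, the median log2 fold change was 4.19 for the 10 checkpoint, kinetochore and centromere genes, 4.12 for the 9 cyclins, kinases and phosphatases and 4.11 for the 13 spindle genes. It was 3.69 for the 5 chromosome structure genes and 3.51 for the 5 genes of exit and separation.

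Per unit of transcript length, the order of the genes was much alike in both lines. In the authors' FPKM, CDC20 was the highest of the 43 in siNC (151 and 152 FPKM), followed by CCNB1 (means of 67.7 FPKM), BUB3 (47), PLK1 (39.4) and the survivin gene BIRC5 (39). ASPM, a spindle pole protein, was the lowest at a mean of 0.915 FPKM. In LNCaP, BUB3 led with a mean of 13.7 FPKM over the 4 libraries, followed by CDC20 (5.69) and FOXM1 (4.69), and ASPM was again the lowest (0.045). The Spearman rho between the mean FPKM of siNC and of the LNCaP libraries was 0.925 across the 43 genes, which share libraries and length scaling.

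Other genes of the mitotic machinery were higher in EnzaR siNC too, with a smaller median in each list. Of 36 further kinetochore and centromere genes, 35 were higher (median 3.10), among them HJURP, the chaperone of the centromeric histone CENPA (5.15), and CENPU (5.37). Of 33 further spindle, kinesin and cytokinesis genes, 29 were higher and 2 lower (median 2.22), with the minus-end motor gene KIFC1 at 3.63. Of 19 further passenger complex and mitotic kinase genes, 14 were higher and 2 lower (median 1.96). Of 16 further condensin and cohesin genes, 14 were higher (1.64), and of 17 further genes of the anaphase-promoting complex, 14 were higher and 1 lower (1.09). Of 25 DREAM and MYB-MuvB regulators, 19 were higher and 1 lower (median 0.92). There MYBL2 stood at 304 and 292 against 22.8 CPM (3.71), LIN9 at 14.7 and 17.2 against 1.07 CPM (3.89) and E2F1 at 96.4 and 96.3 against 9.63 CPM (3.32). CDKN1A, the p21 inhibitor of cyclin-dependent kinases, stood at 508 and 503 against 605 CPM (-0.26, adjusted p = 0.0509). Of 36 DNA replication genes, 35 were higher, with a median of 2.88 against 4.06 for the 43 mitosis genes; the difference between these lists was not tested.

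**Figure D2:**
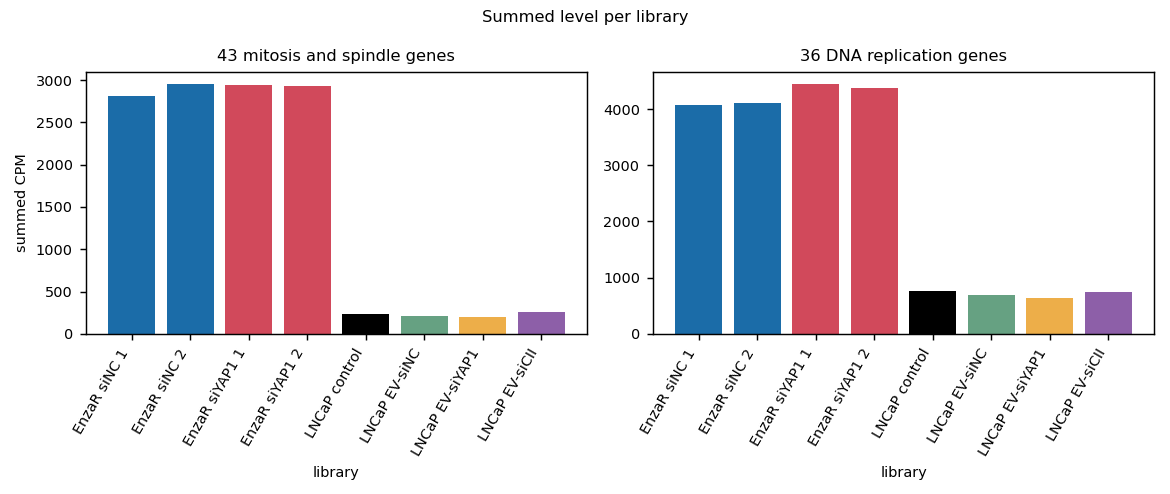
Summed CPM (y axis) of the 43 mitosis and spindle genes (left) and of 36 DNA replication genes (right) in each of the 8 libraries (x axis), 1 bar per library. The mitosis sum is 2810 to 2950 CPM in EnzaR and 197 to 254 CPM in LNCaP libraries.

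The line, enzalutamide in the medium and siRNA transfection differ together between these groups and cannot be told apart. LNCaP control is 1 library that was assumed to vary like the EnzaR pairs, and after a correction for GC content and transcript length the median of the 43 genes was 3.66.

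With YAP1 siRNA the group stood at a similar summed level on the TMM scale. Single genes were called in both directions, near the share over all genes. AURKB, BIRC5 and UBE2C rose and BUB1, ANLN, CCNA2 and BUB1B fell, 3 higher and 4 lower of 43 (edgeR quasi-likelihood test, adjusted p under 0.05, n = 2 and 2). Over all 14948 genes tested, 12.1% were called, 5.83% higher and 6.22% lower, so the members' 7 calls lie near that background. The median log2 fold change of the 43 genes was -0.17, against -0.025 over all genes, with 12 genes above 0 and 31 below. At an unadjusted edgeR p under 0.05, 5 were higher and 13 lower, beside 1977 higher and 2362 lower of all 14948 genes. The siYAP1 libraries did not overlap the siNC libraries for 7 genes that were higher and 19 that were lower, while 17 overlapped; over all genes 27.9% were apart and higher and 30.6% apart and lower.

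Among the 9 cyclins, kinases and phosphatases, 1 rose and 1 fell (median -0.13). AURKB (chr17:8108056-8113918, hg19), the kinase of the chromosomal passenger complex, stood at 74.6 and 77.3 CPM in siNC and 112 and 93.8 CPM in siYAP1. Its log2 fold change was 0.43 (SE 0.107, edgeR adjusted p = 0.0157), and both siYAP1 libraries lay above both siNC libraries. CCNA2 (chr4:122737599-122745087) stood at 38.2 and 38.3 CPM in siNC and 28.6 and 28.5 CPM in siYAP1, with replicates that differed by far less than the groups. Its log2 fold change was -0.42 (SE 0.119, edgeR adjusted p = 0.0276). PLK1 stood at 186 and 189 against 228 and 229 CPM, 2 groups that were apart but just missed the threshold (0.28, edgeR adjusted p = 0.0505). CCNB1 stood at 168 and 178 against 157 and 153 CPM (-0.17, edgeR adjusted p = 0.244). CDK1 stood at 137 and 122 against 125 and 112 CPM, where the groups overlapped (-0.13, edgeR adjusted p = 0.413). CCNB2, the cyclin B2 gene, differed least of the 43, at 63.7 and 64.7 against 64.4 and 64.5 CPM (0.0016). AURKA (-0.26), PBK (-0.20) and CDC25C, the phosphatase that activates CDK1 (-0.031), did not pass.

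Of the 10 checkpoint, kinetochore and centromere genes, 2 fell and none rose (median -0.25, 9 of 10 below 0). BUB1 (chr2:111395275-111435691), a checkpoint kinase of the kinetochore, stood at 24.9 and 27.5 CPM in siNC and 14.2 and 20.7 CPM in siYAP1. Its log2 fold change of -0.59 (SE 0.16, edgeR adjusted p = 0.0247) came with siYAP1 replicates that differed from each other more than the siNC replicates did. BUB1B (chr15:40453224-40513337), which encodes the checkpoint protein BUBR1, stood at 37.1 and 44.9 against 30.2 and 32.3 CPM (-0.40, SE 0.127, edgeR adjusted p = 0.0468). BUB3, the binding partner of both proteins, stood at 141 and 160 against 166 and 174 CPM (0.17, edgeR adjusted p = 0.259) and was the 1 gene of this role above 0. CENPF stood at 46.7 and 72.6 against 44.7 and 46.7 CPM (-0.39, edgeR adjusted p = 0.0899), with siNC replicates further apart than the group means. CENPE, the kinetochore kinesin, had a value of -0.49 (edgeR adjusted p = 0.0982), and TTK, MAD2L1, CENPA, NUF2 and NDC80 ranged from -0.30 to -0.066.

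Of the 13 spindle motor and microtubule genes, 1 fell and none rose (median -0.24, 12 of 13 below 0). ANLN (chr7:36429415-36493400), the scaffold protein anillin of the cytokinetic ring, stood at 26.8 and 32.7 CPM in siNC and 20.9 and 21.5 CPM in siYAP1 (-0.49, SE 0.137, edgeR adjusted p = 0.0264). The siYAP1 pair was tight and lay wholly below the siNC pair. ASPM had the largest difference of the 43 but low levels, at 7.94 and 12 against 7.12 and 5.82 CPM (-0.63, SE 0.218, edgeR adjusted p = 0.0615). DLGAP5 (-0.41), HMMR (-0.38), KIF11, the motor that pushes spindle poles apart (-0.30), CKAP2L (-0.25) and KIF23 (-0.24) did not pass. Nor did KIF20A and NUSAP1 (both -0.18), TPX2 (-0.15), KIF4A (-0.13), PRC1 (-0.031) and KIF2C (0.02).

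None of the 5 chromosome structure genes passed with edgeR, DESeq2 or limma-voom (median -0.28), and 3 were lower at an unadjusted p under 0.05 with edgeR. The condensin genes SMC4 and NCAPG had values of -0.34 each and NCAPH of -0.13, and TOP2A, topoisomerase II alpha, had -0.28. MKI67 stood at 106 and 108 against 106 and 118 CPM, where the groups overlapped (0.065, edgeR adjusted p = 0.706). The 5 genes of exit and separation were all above 0 (median 0.24), and 2 of them rose. BIRC5 (chr17:76210267-76221717), a subunit of the chromosomal passenger complex, stood at 153 and 144 CPM in siNC and 203 and 181 CPM in siYAP1 (0.37, SE 0.0969, edgeR adjusted p = 0.0207). UBE2C (chr20:44441215-44445596), the ubiquitin-conjugating enzyme of the anaphase-promoting complex, stood at 58.7 and 65.2 against 92.6 and 74.4 CPM (0.42, SE 0.116, edgeR adjusted p = 0.0248). In both genes the groups were apart, with siYAP1 libraries that differed from each other more than the siNC libraries did. CDC20 stood at 304 and 312 against 370 and 358 CPM, apart but not past the threshold (0.24, edgeR adjusted p = 0.0969). PTTG1, the securin gene, whose reads may be shared with its near-identical copies, had a value of 0.22, and ESPL1, the separase gene, of 0.17. FOXM1 stood at 150 and 137 against 141 and 164 CPM, where the groups overlapped (0.084, edgeR adjusted p = 0.622).

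**Figure D3:**
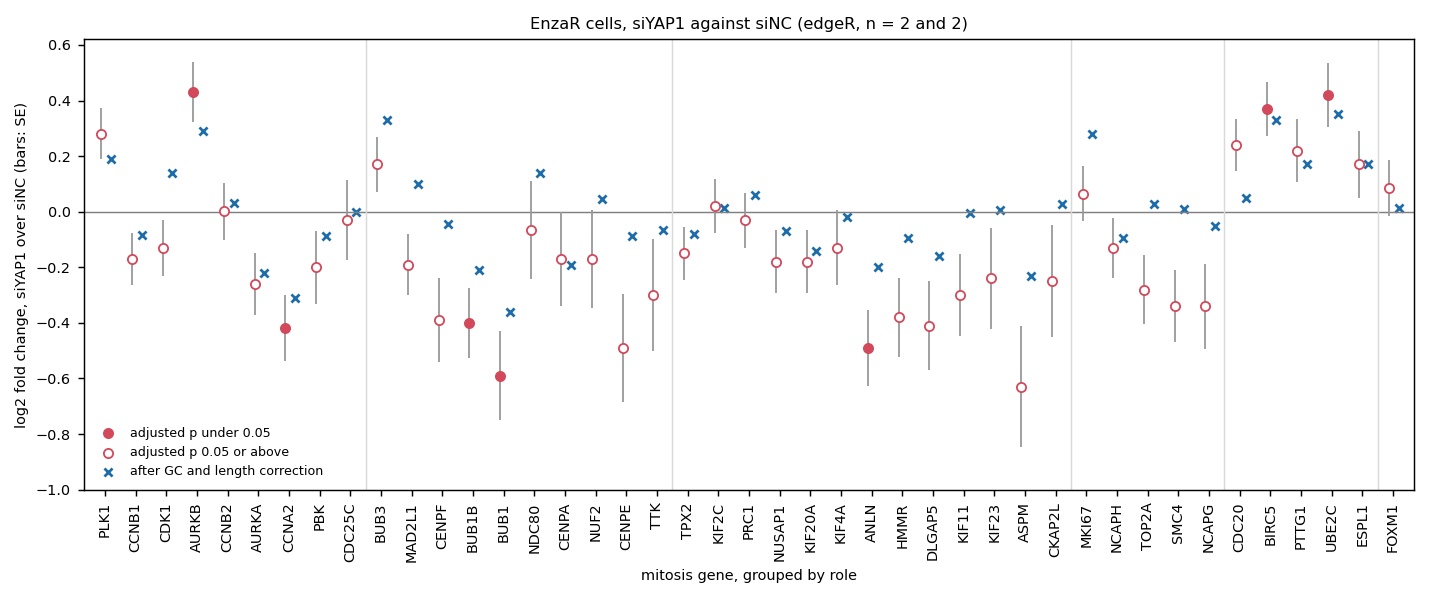
Log2 fold change of siYAP1 over siNC in EnzaR cells (y axis, circles with SE bars, n = 2 and 2) for the 43 genes grouped by role (x axis), and the value after a correction for GC content and transcript length (crosses). Filled circles mark the 7 genes with an adjusted p under 0.05; after the correction most values lie closer to 0 and the median is -0.002.

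GC content moved with these differences. GC content of the longest transcript ran from 35.3% to 57.9% over the 43 genes, with a median of 42.6%, against 49.4% over all genes. The Spearman rho between GC content and the log2 fold change was 0.751 across the 43 genes and 0.485 across 14547 genes, which share the 4 libraries. All 11 mitosis genes under 40% GC were below 0 (median -0.34), and the 2098 genes of that GC range had a median of -0.30. All 8 mitosis genes of 50% GC and over were above 0, in the ranges 50 to 55% (3 genes, median 0.37) and 55% and over (5 genes, median 0.24), where all genes had medians of 0.058 and 0.16. The 4 genes that fell lie at 40 to 45% GC, and the 3 that rose at 50% or more. After the correction, which left 4.03% of all genes called, 2 members were higher, against 2.76% of all genes, and none were lower, against 1.27%. These were BIRC5 (0.33, edgeR adjusted p = 0.0365) and BUB3 (0.33, edgeR adjusted p = 0.0372). At an unadjusted edgeR p under 0.05, 6 members were then higher and 3 lower, beside 1764 and 1129 of all 14948 genes. The corrected values of the other 6 called genes were 0.35 for UBE2C, 0.29 for AURKB, -0.20 for ANLN, -0.21 for BUB1B, -0.31 for CCNA2 and -0.36 for BUB1, with adjusted p from 0.0606 to 0.388.

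The siNC replicates showed a trend of their own in these genes. Replicate 2 exceeded replicate 1 in 35 of 43 genes, with a median of 0.098 on the log2 scale and a range from -0.31 to 0.69. That difference had a rho of -0.585 with GC content across the 43 genes, against -0.0128 across all genes. NDC80, CENPF, KIF23 and ASPM differed past 1.5-fold between the siNC replicates, 4 of 43 against 1.04% of all genes. Between the siYAP1 replicates the median was 0.011, with 24 of 43 above 0 and 0 past 1.5-fold.

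**Figure D4:**
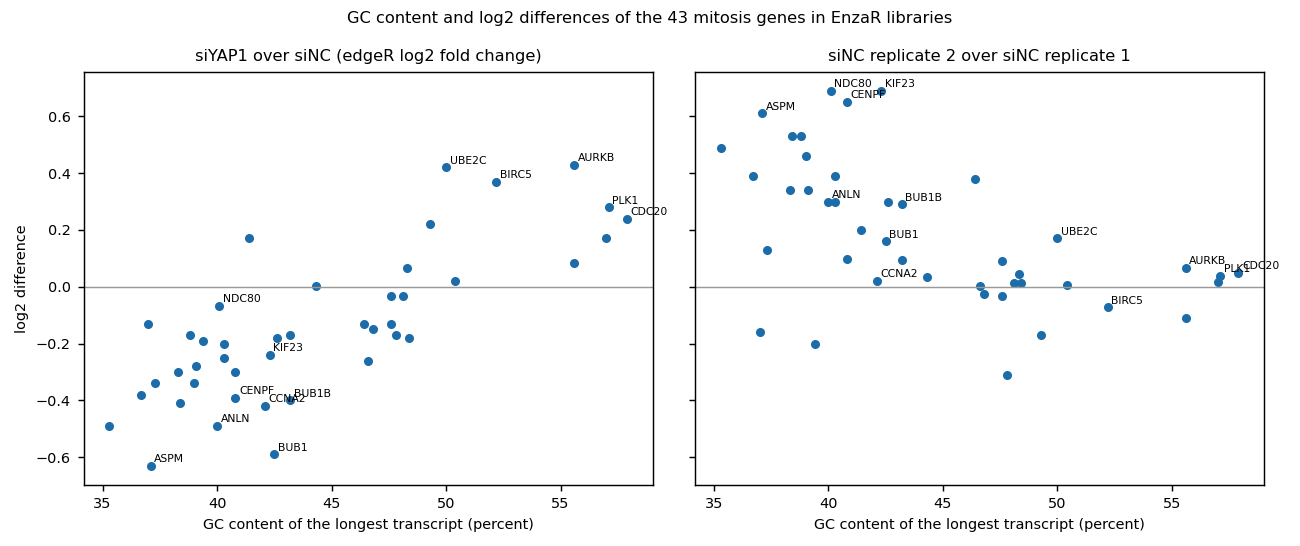
GC content of the longest transcript in percent (x axes) against the log2 difference (y axes) for the 43 genes: siYAP1 over siNC on the left, siNC replicate 2 over replicate 1 on the right; each point is 1 gene. The 11 genes under 40% GC lie below 0 on the left and mostly above 0 on the right, with rho values of 0.751 and -0.585.

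Split by the promoter letters, the median log2 fold change was -0.19 for the 25 genes with CHR letters and -0.15 for the 10 without. It was -0.18 for the 26 genes with CCAAT letters and -0.34 for the 9 without, and -0.38 for the 5 genes with GGAATG and -0.18 for the 30 without. These medians describe the 35 genes with a window before the GC and length correction, and the differences between them were not tested. After the correction the 5 genes with GGAATG were at -0.087 (CENPE), -0.044 (CENPF), -0.093 (HMMR), 0.045 (NUF2) and 0.015 (KIF2C). Corrected medians of the splits were not taken.

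The calls depended on single libraries and on scaling. Without siNC replicate 1, 0 members were higher and 11 lower, beside 234 higher and 829 lower of all 15521 genes tested. Without siNC replicate 2, 2 members were higher and 0 lower, beside 579 and 538 of 15421 genes. Without siYAP1 replicate 1, 0 members were called in either direction, where 0.166% of all genes were called. Without siYAP1 replicate 2, 3 members were higher and 1 lower, beside 940 and 516 of 15508 genes. Scaled by library totals in place of TMM, all genes shifted together, from a median of -0.025 to -0.13, with 291 higher and 1416 lower. The median of the 43 genes was then -0.27, with 0 members higher and 7 lower, and FOXM1 and MKI67, whose values were near 0, changed sign with that shift.

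Further mitotic genes and their regulators, from lists that hold none of the 43, had calls in both directions, against 5.83% of all genes higher and 6.22% lower. After the GC and length correction no gene of these 7 lists was lower with edgeR, and 0 to 4 per list were lower at an unadjusted p under 0.05, so each fall named here lost its call. Of 33 spindle, kinesin and cytokinesis genes, 6 fell and 1 rose (median -0.11, corrected 0.035). CLASP2, a microtubule plus-end protein, fell from 32.5 to 20.2 CPM in the mean (-0.69, edgeR adjusted p = 0.0058), and ECT2, the exchange factor that triggers cytokinesis, fell from 33.1 to 22.5 CPM (-0.56, edgeR adjusted p = 0.0128). Their corrected values were -0.35 and -0.24. STMN1, the microtubule destabiliser stathmin, rose from 169 to 232 CPM (0.45, edgeR adjusted p = 0.00863). Of 16 condensin and cohesin genes, 3 fell and 2 rose (median -0.30, corrected -0.046). PDS5A (-0.45, corrected -0.11), PDS5B (-0.46, corrected -0.03) and SMC2 (-0.44, corrected -0.10) fell. CDCA5, the gene of the cohesin protector sororin (0.46), and NCAPH2 (0.36) rose. Of 36 kinetochore and centromere genes, PMF1 (0.43), CENPM (0.41) and CENPH (0.54) rose and CENPU (-0.52, corrected -0.32) fell (median -0.10, corrected -0.024). Of 17 genes of the anaphase-promoting complex, UBE2S, which extends the ubiquitin chains that UBE2C starts, rose (0.47) and the subunit gene CDC27 fell (-0.46, corrected -0.10). Of 19 passenger complex and mitotic kinase genes, PKMYT1, an inhibitory kinase of CDK1, rose (0.40), with a median of -0.17 (corrected -0.07).

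Among the 25 DREAM and MYB-MuvB regulators, 3 rose and 2 fell (median 0.055). E2F2 rose from 29.9 to 55.2 CPM in the mean (0.88, SE 0.121, edgeR adjusted p = 3.90e-04). E2F1 stood at 96.4 and 96.3 against 143 and 130 CPM (0.50, SE 0.098, edgeR adjusted p = 0.0045), and CDKN1A at 508 and 503 against 663 and 655 CPM (0.38, SE 0.0936, edgeR adjusted p = 0.016). All 3 had groups that were apart. The retinoblastoma family genes RB1 (-0.47, edgeR adjusted p = 0.025) and RBL2 (-0.44, edgeR adjusted p = 0.019) fell. Corrected for GC content and length, the calls of 4 of these 5 were lost: E2F1 was at 0.28 (edgeR adjusted p = 0.068), CDKN1A at 0.23 (edgeR adjusted p = 0.105), RB1 at -0.12 (edgeR adjusted p = 0.612) and RBL2 at -0.21 (edgeR adjusted p = 0.254). MYBL2, at 304 and 292 against 365 and 347 CPM (0.25, edgeR adjusted p = 0.079), and LIN9 (0.094, edgeR adjusted p = 0.726) did not pass. Of 36 DNA replication genes, 5 rose and 2 fell (median 0.027), among them the licensing factor gene CDT1 (0.35), DUT (0.38), the helicase subunit gene MCM7 (0.32) and GINS2 (0.36) that rose. After the GC and length correction E2F2 (0.80, edgeR adjusted p = 6.70e-04), STMN1 (0.76, edgeR adjusted p = 3.02e-04), CDCA5 (0.37), CENPH (0.63), DUT (0.51) and GINS2 (0.37) were called still, while the other rises named here from these lists were not.

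In LNCaP cells, 15 of the 43 genes reached a mean of 5 CPM over the 4 libraries, and ratios were described for these, with no test because each group is 1 library. A gene was called past 1.5-fold, and the intervals are exact 95% binomial limits that cover counting error only. The EV-siNC library is part of all 3 comparisons, so their values are not independent.

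With EnzaR vesicles (EV-siNC against control), 10 of the 15 genes were below 0 and the median log2 ratio was -0.26, against -0.017 over 10778 genes. None was higher past 1.5-fold, against 3.67% of all genes, and 3 were lower, against 0.436%. CDC20 stood at 15.6 CPM in control and 9.77 CPM in EV-siNC (log2 ratio -0.68, interval -0.96 to -0.41), BIRC5 at 13.1 and 8.44 CPM (-0.63, interval -0.94 to -0.34) and PTTG1 at 6.48 and 4.17 CPM (-0.63, interval -1.08 to -0.22). These 3 belong to the exit and separation role, whose 4 genes above the floor were all below 0. PLK1 stood at 18.6 and 12.7 CPM (-0.56, interval -0.81 to -0.32), FOXM1 at 23.3 and 18.4 CPM (-0.35, interval -0.56 to -0.14) and KIF2C, a microtubule-depolymerising kinesin, at 5.91 and 4.33 CPM (-0.45, interval -0.90 to -0.029). CENPF, at 3.83 and 5.18 CPM, had the highest ratio (0.42, interval -0.036 to 0.90), and BUB3, at 38.6 and 45.3 CPM, was the 1 gene above 0 whose interval left out 0 (0.22, interval 0.074 to 0.37). For CCNB1 (-0.11), CDK1 (0.20), MKI67 (-0.26), AURKB (-0.072), ESPL1 (-0.30), PRC1 (0.17) and the spindle assembly factor gene TPX2 (0.044) the intervals included 0. Summed over all 43 genes, the ratio was -0.15 (4203 and 4010 counts, interval -0.22 to -0.091), and over the 42 genes without BUB3, which alone held 686 of the control counts, it was -0.24. The ratio had a rho with GC content of -0.796 across the 15 genes and of -0.557 across all genes. Corrected for GC content and length, the median was -0.24 and 1 gene was lower past 1.5-fold.

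With vesicles of YAP1-depleted cells (EV-siYAP1 against EV-siNC), 11 of the 15 genes were below 0, with a median of -0.22 against 0.0012 over all genes. None was higher past 1.5-fold, against 0.566% of all genes, and AURKB was lower, against 0.659%, at 5.77 CPM in EV-siNC and 3.74 CPM in EV-siYAP1 (-0.60, interval -1.07 to -0.17). MKI67 stood at 8.39 and 5.58 CPM (-0.57, interval -0.95 to -0.21), KIF2C at 4.33 and 2.87 CPM (-0.56, interval -1.11 to -0.065) and PLK1 at 12.7 and 9.8 CPM (-0.36, interval -0.65 to -0.081). These 3 missed the 1.5-fold line, and their intervals lay below 0. CENPF (-0.37), BIRC5 (-0.29), CDC20 (-0.28), CCNB1 (-0.15), TPX2 (-0.22), ESPL1 (-0.19), BUB3 (-0.024), PRC1 (0.043), FOXM1 (0.05), PTTG1 (0.23) and CDK1 (0.29) had intervals that included 0. The ratio summed over the 43 genes was -0.11 (4010 and 3634 counts, interval -0.18 to -0.048). CDKN1A stood at 712 and 1070 CPM in the same libraries (0.59, interval 0.56 to 0.62) and E2F1 at 9.03 and 5.9 CPM (-0.59, interval -0.96 to -0.25).

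With vesicles of COUP-TFII-depleted cells (EV-siCII against EV-siNC), 14 of the 15 genes were above 0, with a median of 0.29 against 0.00076 over all genes; BUB3 was the exception (-0.12). None passed 1.5-fold in either direction, against 0.315% of all genes higher and 0.585% lower. KIF2C stood at 4.33 and 6.23 CPM (0.52, interval 0.11 to 0.96), FOXM1 at 18.4 and 26.1 CPM (0.51, interval 0.31 to 0.72) and CENPF at 5.18 and 7.1 CPM (0.46, interval 0.074 to 0.86). PTTG1 (0.45), PLK1 (0.41), BIRC5 (0.38) and PRC1 (0.29) also had intervals above 0. Those of AURKB (0.34), CDK1 (0.28), CDC20 (0.26), CCNB1, MKI67 and ESPL1 (0.15 each) and TPX2 (0.094) included 0. The 28 genes under the 5 CPM floor, summed, had a ratio of 0.36 (919 and 1149 counts, interval 0.24 to 0.49), and all 43 a ratio of 0.26 (4010 and 4651 counts, interval 0.19 to 0.32). The summed DNA replication genes had a ratio of 0.083 (interval 0.048 to 0.12). Against the control library, the EV-siCII sum of 254 CPM stood beside 237 CPM, so the libraries without vesicles and with EV-siCII were the higher 2 of the 4.

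**Figure D5:**
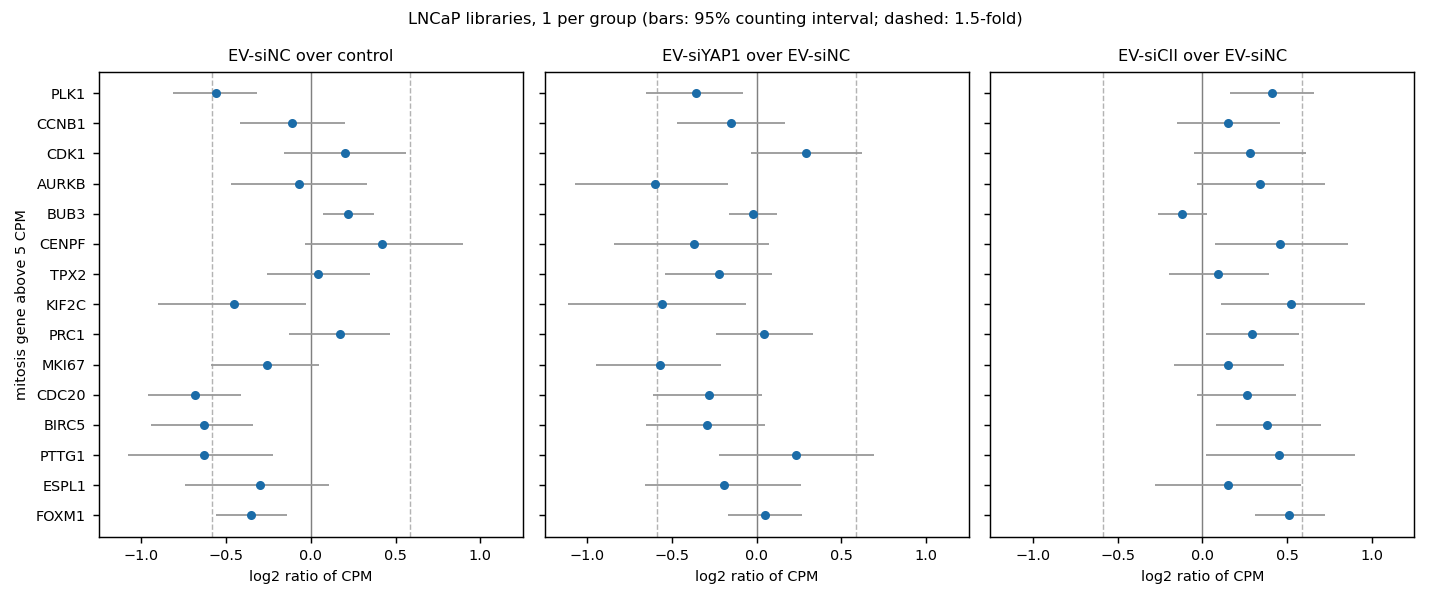
Log2 ratio of CPM (x axes) with 95% counting intervals for the 15 genes above 5 CPM (y axis) in the 3 LNCaP comparisons, 1 library per group; dashed lines mark 1.5-fold. Most points lie below 0 in the left and middle panels and 14 of 15 lie above 0 in the right panel.

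The same sums between replicates of 1 EnzaR group differed by 0.084 on the log2 scale between the siNC libraries and by -0.0057 between the siYAP1 libraries with far higher counts. CDKN1A was at 605, 712, 1070 and 599 CPM in control, EV-siNC, EV-siYAP1 and EV-siCII, and the mitosis sum at 237, 214, 197 and 254 CPM. The library with the most CDKN1A had the lowest sum, and a link between them was not tested. MYBL2 stood at 22.8, 19, 16 and 22.7 CPM and LIN9 at 1.07, 1.87, 2.11 and 1.15 CPM in the same order. Of the other lists, ZWINT, a kinetochore protein, was lower past 1.5-fold in EV-siNC against control (13.2 and 7.05 CPM). It was lower again in EV-siYAP1 against EV-siNC (7.05 and 3.63 CPM). Past 1.5-fold higher in EV-siNC than in control were 1 kinetochore gene, 1 spindle gene and 2 condensin and cohesin genes of these lists. The last 2 were RAD21 (31.4 and 48.9 CPM) and STAG2 (23.6 and 36.3 CPM), in a list with a median of 0.21. Corrected for GC content and length, the median of that list was 0.022, with 7 genes above 0 and 6 below. Over all genes 3.67% were higher and 0.436% lower. PKMYT1 was also lower in EV-siYAP1 against EV-siNC (8.71 and 5.14 CPM), and PLK3 in EV-siCII against EV-siNC (14.3 and 8.47 CPM). With no replicate in LNCaP, the spread between cultures of a group is unknown for each of these values.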

How the data were processed

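The deposited table gave a raw count and an FPKM value per gene in 8 libraries. Per the submitters' processing notes the build was hg19 (GRCh37) and the tools included HTSeq 0.6.1, HISAT2 2.0.1, cutadapt 1.9.1 and DESeq2, with no roles stated. The sources used here do not give the annotation release or the strand setting, so overlapping and antisense genes cannot be told apart. Tests used the deposited counts unchanged, and the authors' FPKM served only to compare levels between genes. The 43 members, the other lists and the tests were chosen with earlier results of these data known.

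The test of siYAP1 against siNC was edgeR's robust quasi-likelihood test (version 4.0.16, R 4.3.3) after filterByExpr and TMM, with Benjamini-Hochberg adjustment over all genes and a threshold of 0.05. EnzaR siNC and LNCaP control were compared in a fit of all 8 libraries with 2 residual degrees of freedom. LNCaP ratios used CPM that were TMM-scaled over the 4 LNCaP libraries (prior count 2), of genes that averaged at least 5 CPM on that scale. The CPM printed for single libraries were TMM-scaled over all 8. GC content came from the longest GENCODE transcript by identifier (97.3% of genes tested, 43 of 43 members), and its correction, with length, from a smooth surface per library (mgcv 1.9.3, basis 30). The EnzaR and line tests were tested on simulated data. Alternatives were DESeq2 1.42.0, limma-voom (limma 3.58.1), other scalings, filters and thresholds, a replicate block and each replicate left out.

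Named were all members called in EnzaR cells, the 8 largest line differences, in each LNCaP comparison the genes past 1.5-fold or the 6 largest ratios, 6 widely used genes, up to 4 called genes per other list, and YAP1, CDKN1A, E2F1, MYBL2 and LIN9.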

Additional observations from a re-analysis of the deposited data

How the results depend on the processing

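In the EnzaR comparison, members higher and lower numbered 3 and 4 with a median of -0.17. Library totals gave 0 and 7 (median -0.27), and the GC and length correction gave 0 lower (median -0.002). No filter on low counts gave 7 lower, beside 1010 higher and 1108 lower of all 26346 genes. All 8 libraries in the fit gave 2 lower, beside 929 higher and 901 lower of all 17537 genes. Leaving out each replicate gave 0 to 3 higher, 0 to 11 lower and medians from -0.26 to -0.045; over all genes, calls fell to 15 higher and 11 lower without siYAP1 replicate 1. The replicate differences of siNC and siYAP1 showed no shared shift (r = -0.0713 across 14948 genes), which does not settle whether replicate numbers pair the samples. With a replicate block 3 were higher and 4 lower, beside 564 and 845 of all 14948 genes. BUB1B was then at an edgeR adjusted p of 0.0599 and ASPM was called in its place. With the block and the GC and length correction, 0 were lower (median -0.0019), beside 264 of all 14948 genes. Signs turned for FOXM1 (-0.019) and MKI67 (-0.037) with library totals, for the same genes without siYAP1 replicate 2 alone of the replicates (-0.018 and -0.0032, in ranges of -0.018 to 0.18 and -0.0032 to 0.13 over all replicates left out), and for CDK1 with the GC and length correction (0.14, and 0.15 with the block). The causes were not tested.

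In the line comparison all 43 stayed higher in every setting run, and the median moved from 4.06 to 4.14 against the mean of the 4 LNCaP libraries, to 3.66 with the GC and length correction and to 3.87 to 4.17 with each siNC replicate left out.

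In EV-siNC against control (0 higher, 3 lower, median -0.26), library totals gave 1 lower (median -0.13), a floor of 1 CPM gave 3 higher and 5 lower (median -0.096), a floor of 10 CPM a median of -0.45, a line of 1.2-fold 1 higher and 8 lower, 2-fold 0 lower, and the GC and length correction 1 lower. In EV-siYAP1 against EV-siNC (0 and 1, median -0.22), the floor of 1 CPM gave 3 lower (median -0.097), that of 10 CPM 0 lower (median -0.15), 1.2-fold 1 higher and 7 lower, and 2-fold 0 lower. In EV-siCII against EV-siNC (0 and 0), the floor of 1 CPM gave 4 higher and 1.2-fold 9 higher. These counts at other floors and fold lines have no share over all genes beside them, so they describe the members alone. Depth limits the 28 members under 5 CPM in LNCaP to their sum.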
